A study of Rattus norvegicus with 48 samples.

Results

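The Notch genes of the rat lung described here are the ligands Dll4, Dll1, Jag1 and Jag2, the receptors Notch1 and Notch4, and the target genes Hes1, Hey1, Heyl and Nrarp. The set was chosen by gene name because Dll4 was lower in exposed than in air lungs at day 1. Of the 10 names, 9 have a row among the 32285 gene rows of the tables, each a single row, and Nrarp was not analysed here. All 9 passed the filter on low counts at each day, among 14314 genes tested at day 1, 14259 at day 7 and 14192 at day 27.

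RNA from a piece of lung was sequenced in 48 healthy male Sprague-Dawley rats of 200 to 250 g. The exposed animals had breathed 30 mg/m3 of fracking sand dust, the mineral dust of sand handled at gas wells, together with 1 mg/m3 of diesel exhaust particles, in whole-body chambers for 6 hours on each of 4 days. The air animals breathed filtered air on the same schedule. Lungs were taken 1, 7 or 27 days after exposure, which gives 6 groups of 8: exposed and air at day 1, exposed and air at day 7, and exposed and air at day 27. The dust and the diesel particles were always given together, so their parts cannot be told apart.

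Notch signalling passes between touching cells. A ligand of the Delta-like or Jagged family on one cell binds a Notch receptor on its neighbour, proteases then free the receptor's intracellular domain, and that domain joins the DNA-binding protein Rbpj in the nucleus to turn on Hes and Hey repressor genes. In blood vessels Dll4 is the ligand of arterial and sprouting endothelial cells, Notch1 and Notch4 are endothelial receptors, and Jag1 and Heyl are also used by the smooth muscle cells and pericytes of the vessel wall. In the lung the same pathway also takes part in airway cell fate.

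The 48 libraries held 9445687 to 14400337 summed expected counts (median 12004528). Values are counts per 1000000 (CPM) after TMM scaling, and a level in CPM is not corrected for transcript length, so levels are compared within a gene and not between genes. Counts behind the 9 genes ran from 141 for Hey1 in an air day 7 library to 4084 for Notch1 in an exposed day 7 library. The lung label was checked against 11 alveolar epithelial markers, all of which were detected in every group, with summed levels of 18240 to 27980 CPM. In 4 pairs of libraries of the same group, the median squared count difference was 1.44 to 1.67 times that of counting noise alone. It was at least 2.42 times in the other 164 pairs. The 4 close pairs were exposed day 1 libraries 1 and 4, exposed day 7 libraries 3 and 6, air day 7 libraries 1 and 4 and air day 27 libraries 3 and 6. Each such pair was averaged into 1 unit for means and SDs, which gives n = 7 in those groups and n = 8 in the others. The main edgeR tests, their log2 fold changes and SEs took every library separately, 8 per group. Close pairs were summed in those tests only as an alternative. Libraries are numbered within a group by animal number. The labels name no cage partners, so p-values measure the spread between libraries as they stand.

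The promoter windows show which of these genes carry the core letters that Rbpj recognises, and they are printed for the 3 genes that do. Each window runs from 250 bases before to 50 bases after the RefSeq start on build GRCr8, which is not the build of the count tables. Windows were found for 8 of the 10 genes, with none for Dll4 and Hey1. The motif searched was TGGGAA, or TTCCCA on the other strand, and at least 1 match lay in 25.7% of all 33469 promoter windows of that length and at least 2 matches in 3.85%. Hes1 (chr11:84212996-84213295, minus strand), Dll1 (chr1:64993225-64993524, minus strand) and Notch4 (chr20:4189023-4189322, minus strand) held 2 matches each. The matches are in capitals, and each sequence is written 5′ to 3′ in the direction of the gene.
Hes1: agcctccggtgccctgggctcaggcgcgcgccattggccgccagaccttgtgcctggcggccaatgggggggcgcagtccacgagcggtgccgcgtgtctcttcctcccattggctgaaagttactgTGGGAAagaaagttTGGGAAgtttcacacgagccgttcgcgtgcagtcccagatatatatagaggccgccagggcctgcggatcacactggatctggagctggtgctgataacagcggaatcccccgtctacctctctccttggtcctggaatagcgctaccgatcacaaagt
Dll1: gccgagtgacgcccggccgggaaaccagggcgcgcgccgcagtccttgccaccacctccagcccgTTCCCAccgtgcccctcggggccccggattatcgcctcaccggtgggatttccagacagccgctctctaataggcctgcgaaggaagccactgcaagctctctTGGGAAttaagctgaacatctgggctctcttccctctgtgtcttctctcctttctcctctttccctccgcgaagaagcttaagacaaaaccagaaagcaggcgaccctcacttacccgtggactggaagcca
Notch4: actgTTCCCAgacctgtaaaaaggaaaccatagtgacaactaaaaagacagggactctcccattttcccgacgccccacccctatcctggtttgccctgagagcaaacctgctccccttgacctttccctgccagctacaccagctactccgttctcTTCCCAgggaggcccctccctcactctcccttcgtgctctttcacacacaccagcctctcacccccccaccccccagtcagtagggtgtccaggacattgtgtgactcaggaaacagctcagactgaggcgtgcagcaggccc

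In Hes1 both matches ran in the direction of the gene and began 123 and 109 bases before the start, 14 bases apart. In Dll1 they began 185 and 82 bases before the start on opposite strands, and in Notch4 both lay on the opposite strand, beginning 246 and 93 bases before the start. The windows of Jag1, Jag2 (2 start sites), Notch1, Heyl and Nrarp held no match. A match is a run of letters and not a measured binding site.

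At day 1 Dll4 was the gene that chose the set, so its values are given as a description. Dll4 ran from 98.7 to 136.8 CPM in exposed lungs, with a median of 127 CPM, and from 148 to 207.6 CPM in air lungs, with a median of 162 CPM. Every exposed library lay below every air library, as in 0.0699% of all genes tested. The means were 124 ± 12.7 CPM in exposed lungs (SD, n = 7) and 167 ± 19.6 CPM in air lungs (SD, n = 8). The edgeR fit of the 16 separate libraries gave a log2 fold change of -0.42 ± 0.072 (SE). That value stayed between -0.44 and -0.37 when each of the 16 libraries was left out in turn. Dll4 was among the 0.0279% of all genes tested with an edgeR adjusted p under 0.05. That is no test of Dll4, since this contrast chose it. It no longer passed in 4 of 8 alternatives, namely no filter on low counts, limma-voom, total count as covariate and the close pairs summed, nor in 14 of the 16 fits that left out 1 library, passing without air library 5 or exposed library 3. Because a lung piece holds many cell types, fewer cells of a type and less RNA per cell cannot be told apart here.

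The other 8 genes lay much nearer to the air lungs at day 1, and are also given without a test. Among the ligands, Jag2 averaged 46.1 ± 4.31 CPM in exposed lungs (SD, n = 7) and 42.3 ± 5.77 CPM in air lungs (SD, n = 8), and each of the 8 exposed libraries exceeded the air mean while the ranges overlapped. Dll1 and Jag1 differed by 0.00 and 0.03 on the log2 scale. Among the receptors, Notch1 averaged 240.0 ± 17.7 CPM in exposed lungs (SD, n = 7) and 259 ± 18.5 CPM in air lungs (SD, n = 8), each of the 8 exposed libraries being below the air mean and 3 of them below the lowest air library. Notch4 had a log2 fold change of -0.12, with 6 of 8 exposed libraries below the air mean. Among the targets, Hes1 averaged 50.5 ± 5.55 CPM in exposed lungs (SD, n = 7) and 56.1 ± 4.88 CPM in air lungs (SD, n = 8), with 5 of 8 exposed libraries below the lowest air library. Hey1 and Heyl had log2 fold changes of -0.04 and 0.01.

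**Figure D1:**
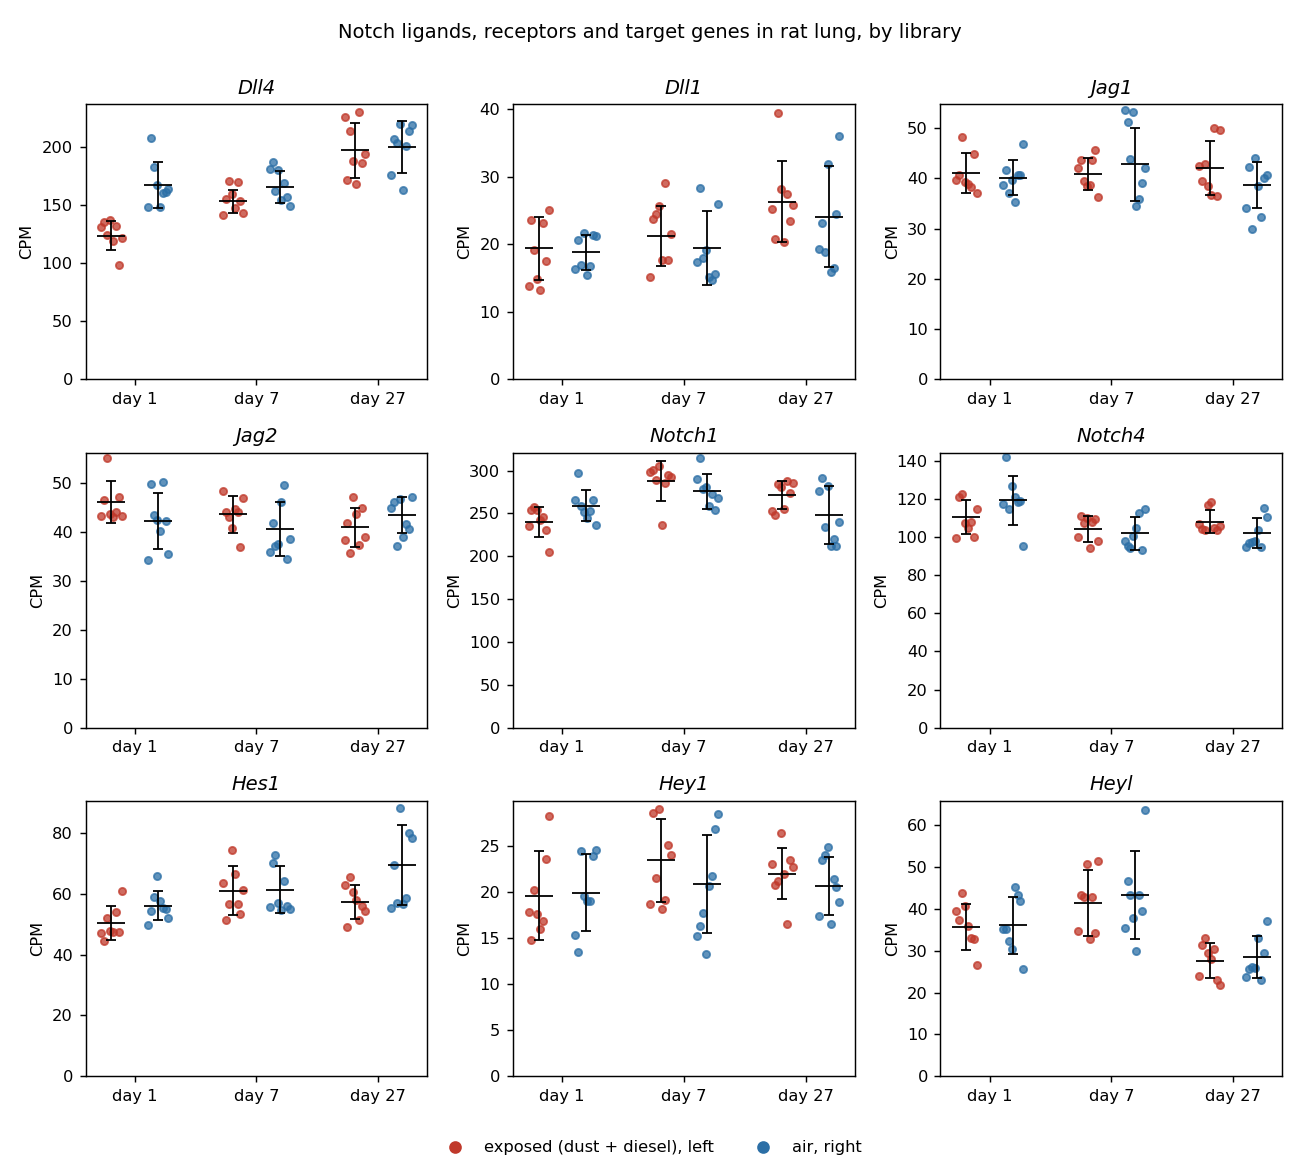
Level of each of the 9 Notch genes in CPM (vertical axes, from 0) in each library at days 1, 7 and 27, with exposed libraries in red at the left and air libraries in blue at the right of each day; bars are the mean and SD with close library pairs averaged. The 8 exposed Dll4 values at day 1, up to 136.8 CPM, lie below the 8 air values, from 148 CPM, while in every other panel the 2 groups of a day overlap.

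Arterial, capillary and pan-endothelial markers lay mostly below 0 at day 1, on the same side as Dll4, and their part in its lower level was not tested. None of them passed by edgeR, and at an unadjusted p under 0.05 there were 4 of 8 arterial, 6 of 17 pan-endothelial and 2 of 9 capillary markers lower and 0 higher, where 4.06% of all genes were lower. All 8 arterial markers had a log2 fold change below 0, with a median of -0.18, where 49.1% of all genes tested lay below 0 and the median of all genes was 0.0019. Their summed level was 941 to 1113 CPM in exposed lungs and 1072 to 1229 CPM in air lungs. Of the pan-endothelial markers 15 of 17 lay below 0 (median -0.10), with summed levels of 6198 to 7306 CPM in exposed lungs and 6829 to 7494 CPM in air lungs, and of the capillary markers 8 of 9 lay below 0 (median -0.13). Venous and lymphatic markers lay nearer to 0, with 6 of 9 below it (median -0.02). The vessel wall lay on the other side, with 11 of 12 smooth muscle and pericyte markers above 0 (median 0.08). Of the 12, 0 passed by edgeR and 2, Notch3 among them, were higher at an unadjusted p under 0.05, where 4.61% of all genes were higher. The lists share genes. Sox17 is both an arterial and a pan-endothelial marker, and the markers Notch3, Efnb2 and Gja4 are also counted among the pathway's other genes. The 13 immediate early genes, whose transcripts change within minutes of handling or stimulation, all lay below 0 (median -0.16), and the 5 heart muscle markers tested all lay above 0 (median 0.42). Of the 7 heart muscle markers 1 was at 0 in every library of both day 1 groups, and no marker of the other lists named here was.

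None of the pathway's other 52 tested genes passed at day 1 by edgeR, with 3 higher and 5 lower at an unadjusted p under 0.05, where 4.61% of all genes were higher and 4.06% lower. The 4 pathway or VEGF genes with the smallest p were Unc5b, a netrin receptor of endothelial tip cells, at -0.20 ± 0.057 on the log2 scale (edgeR adjusted p = 0.328), Efnb2, the arterial ephrin ligand, at -0.16 ± 0.047 (adjusted p = 0.352), the smooth muscle receptor Notch3 at 0.23 ± 0.072 (adjusted p = 0.398), and the acetyltransferase Kat2b at -0.11 ± 0.043 (adjusted p = 0.459).

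**Figure D2:**
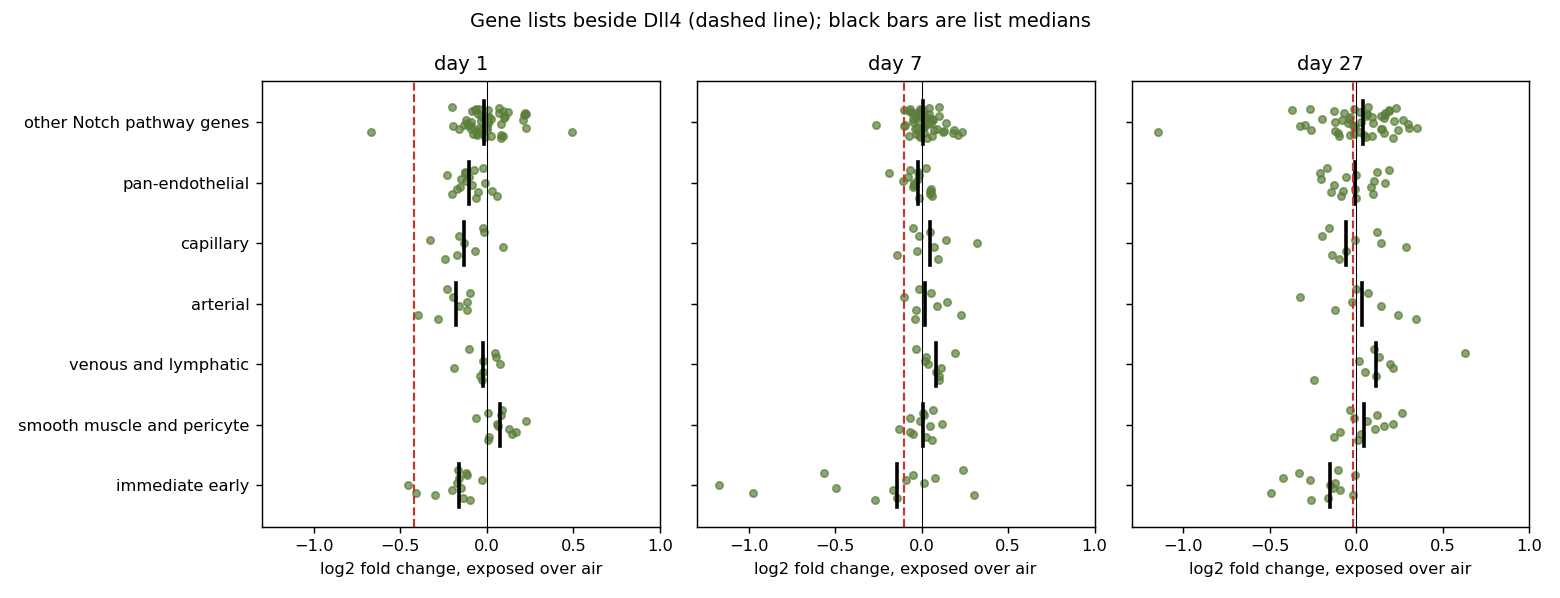
Log2 fold change of exposed over air lungs (horizontal axes) for the genes of 7 lists at days 1, 7 and 27; each green point is a gene, black bars are list medians, and the dashed red line is Dll4. At day 1 Dll4 lies at -0.42, beyond the arterial median of -0.18 and the pan-endothelial median of -0.10, and at day 27 at -0.02.

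At day 7 no ligand, receptor or target passed. Dll4 ran from 141.6 to 170.8 CPM in exposed lungs, with a median of 154.5 CPM, and from 149 to 187 CPM in air lungs, with a median of 165 CPM. The groups overlapped, with 6 of 8 exposed libraries below the air mean and 3 below the lowest air library. Dll4 differed by -0.10 ± 0.051 on the log2 scale (SE, edgeR adjusted p = 0.596), with a 95% interval from -0.21 to 0.0021. Of the 9 genes 0 passed an adjusted p under 0.05 by edgeR, where 0% of all genes tested passed, and 0 had an unadjusted p under 0.05, where 8.47% of all genes did; DESeq2 and limma-voom also called 0 of the 9. The log2 fold changes of the other ligands were 0.19 for Dll1, -0.10 for Jag1 and 0.12 for Jag2, those of the receptors 0.06 for Notch1 and 0.05 for Notch4, and those of the targets -0.0010 for Hes1, 0.20 for Hey1 and -0.03 for Heyl, with edgeR adjusted p from 0.661 to 0.997.

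At day 27 the Dll4 levels of the 2 groups nearly coincided. Dll4 ran from 168 to 230 CPM in exposed lungs, with a median of 191 CPM, and from 163 to 219 CPM in air lungs, with a median of 205 CPM. The groups overlapped over nearly their whole range, and the difference was -0.02 ± 0.075 on the log2 scale (SE, edgeR adjusted p = 0.885) with a 95% interval from -0.18 to 0.14. Whether the Dll4 difference itself changed after day 1 was not tested, since the day 1 value chose the gene.

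The gene furthest from air at day 27 was Hes1, a repressor and the best known Notch target. Hes1 ran from 49.2 to 65.7 CPM in exposed lungs, with a median of 57.0 CPM, and from 55.5 to 88.3 CPM in air lungs, with a median of 64.1 CPM. Each of the 8 exposed libraries was below the air mean and 3 below the lowest air library, yet the ranges overlapped. The log2 fold change was -0.25 ± 0.10 (SE), with an unadjusted p of 0.0237 and an edgeR adjusted p of 0.129. Hes1 passed in a single alternative, the fit of all 48 libraries together, at an edgeR adjusted p of 0.0439. Over the 8 alternatives its adjusted p ran from 0.0439 to 0.171, and without the single libraries from 0.0786 to 0.242.

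Both receptors lay slightly above air at day 27. Notch1 ran from 248.5 to 288 CPM in exposed lungs, with a median of 277 CPM, and from 211.5 to 291 CPM in air lungs, with a median of 237 CPM. Every exposed library was above the air mean, and all lay within the air range. The difference of Notch1 was 0.14 ± 0.069 on the log2 scale (SE, edgeR adjusted p = 0.187). Notch4 averaged 108 ± 6.00 CPM in exposed lungs (SD, n = 8) and 102 ± 7.93 CPM in air lungs (SD, n = 7), again with 8 of 8 exposed libraries above the air mean. Its difference was 0.09 ± 0.048 on the log2 scale (SE, edgeR adjusted p = 0.222).

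The other ligands and targets at day 27 did not pass. On the log2 scale Jag1 was at 0.16 ± 0.088 (SE, edgeR adjusted p = 0.253), Dll1 0.18 and Jag2 -0.07, and among the targets Hey1 had 0.08 and Heyl -0.02, with edgeR adjusted p from 0.253 to 0.938 over these 5 genes. Of the 9 genes 0 passed by edgeR, where 5.52% of all genes tested passed, and 2 had an unadjusted p under 0.05, where 26.7% of all genes did; DESeq2 and limma-voom called 0 of the 9.

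**Figure D3:**
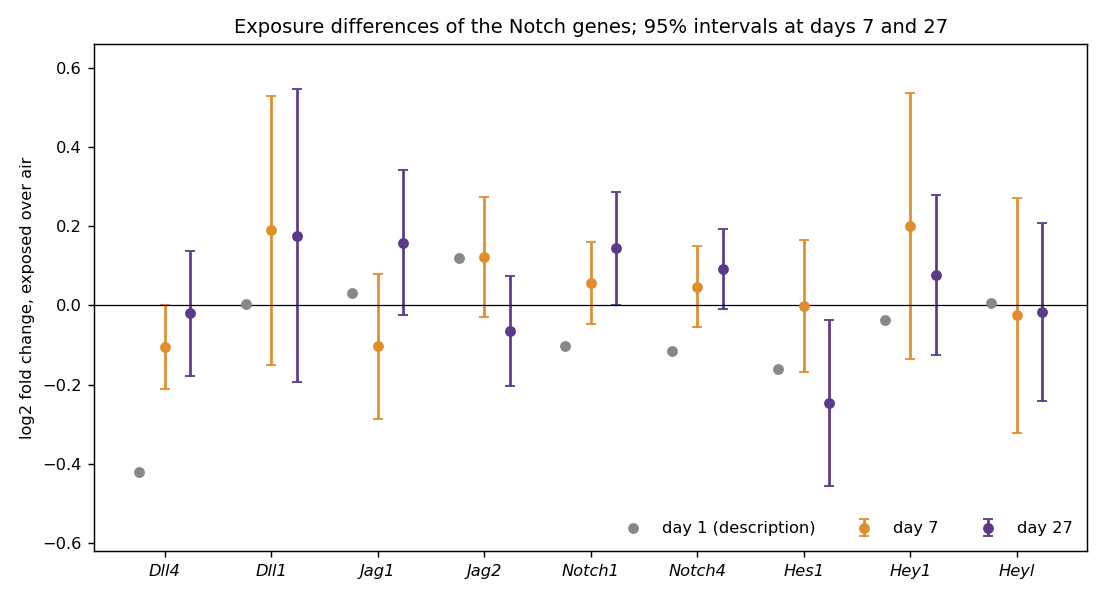
Log2 fold change of exposed over air lungs (vertical axis) for the 9 Notch genes at days 1, 7 and 27; bars at days 7 and 27 are 95% intervals, and day 1 is shown without one because it chose the set. Dll4 lies at -0.42, -0.10 and -0.02 over the 3 days, and Hes1 at day 27 lies at -0.25.

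Taking days 7 and 27 together in 1 fit of 32 libraries, 0 of the 9 genes passed by edgeR, where 7.42% of all genes passed, and 1 had an unadjusted p under 0.05, where 25.8% of all genes did; DESeq2 and limma-voom called 0 of the 9. That gene was Notch1, at 0.10 ± 0.044 on the log2 scale (SE), with an unadjusted p of 0.0304 and an edgeR adjusted p of 0.147. Notch4 had 0.07 ± 0.035 (SE, edgeR adjusted p = 0.207), Hes1 -0.13 ± 0.066 (SE, edgeR adjusted p = 0.234) and Dll4 -0.06 ± 0.047 (SE, edgeR adjusted p = 0.402). The difference between the day 27 and the day 7 effect also passed for 0 of the 9, where 0% of all genes passed and 15% had an unadjusted p under 0.05. Jag1 was the single one of the 9 with an unadjusted p under 0.05 there, at 0.26 ± 0.13 on the log2 scale (SE, edgeR adjusted p = 0.333), and again DESeq2 and limma-voom called 0 of the 9.

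In the rest of the pathway, 4 of 52 tested genes passed at day 27, 1 higher and 3 lower, where 2.18% of all genes were higher and 3.33% lower. The 52 genes come from 62 listed, of which 59 have a row. Psenen, a subunit of the gamma-secretase complex that frees the Notch intracellular domain, ran from 50.2 to 59.3 CPM in exposed lungs, with a median of 52.0 CPM, and from 53.9 to 81.4 CPM in air lungs, with a median of 70.7 CPM. The difference of Psenen was -0.37 on the log2 scale (SE 0.067, edgeR adjusted p = 0.0208). In air lungs at day 7 Psenen had a median of 50.5 CPM, nearer to exposed than to air lungs of day 27. Rfng, a fringe glycosyltransferase that modifies Notch receptors, averaged 16.2 ± 0.884 CPM in exposed lungs (SD, n = 8) and 19.4 ± 1.51 CPM in air lungs (SD, n = 7). It differed by -0.27 ± 0.059 on the log2 scale (edgeR adjusted p = 0.0289), and averaged 16.5 ± 0.920 CPM in air lungs at day 7 (SD, n = 7).

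Hes6, known in mouse to inhibit its relative Hes1, averaged 15.2 ± 1.69 CPM in exposed lungs (SD, n = 8) and 18.5 ± 2.07 CPM in air lungs (SD, n = 7), at -0.30 ± 0.081 (edgeR adjusted p = 0.0430). Fbxw7, the ubiquitin ligase subunit that marks the Notch intracellular domain for breakdown, averaged 21.97 ± 1.63 CPM in exposed lungs (SD, n = 8) and 17.9 ± 2.03 CPM in air lungs (SD, n = 7). Its difference was 0.31 ± 0.073 (edgeR adjusted p = 0.0322). In air lungs at day 7 Hes6 averaged 15.96 ± 1.01 CPM and Fbxw7 21.54 ± 2.15 CPM (SD, n = 7), both nearer to exposed than to air lungs of day 27. Air lungs of day 1 were mixed. Hes6 there averaged 19.2 ± 1.93 CPM and Rfng 17.9 ± 2.21 CPM (SD, n = 8), both nearer to air than to exposed lungs of day 27. Fbxw7 there averaged 20.9 ± 2.58 CPM (SD, n = 8) and Psenen had a median of 52.8 CPM, both nearer to exposed lungs of day 27. Rbpj itself, named after its values were seen, had 0.19 ± 0.056 (edgeR adjusted p = 0.0542).

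Each of these 4 calls was lost without some single libraries, and all but that of Psenen were lost with the close pairs summed. With the pairs summed, Psenen was at an edgeR adjusted p of 0.0476, Rfng and Fbxw7 at 0.0590 and Hes6 at 0.0796, and Hes6 was also lost with no filter on low counts (0.0571). Psenen lost its call without exposed library 3 alone (0.0550). Rfng lost it without air library 3, 6, 7 or 8 or exposed library 1, 3, 7 or 8 (0.05035 to 0.0642), and Fbxw7 without air library 3, 5, 6, 7 or 8 or exposed library 3, 6, 7 or 8 (0.05325 to 0.0689). Hes6 lost it in 12 of 16 such fits, keeping it without air library 1, 2 or 4 or exposed library 2, with edgeR adjusted p of up to 0.0938.

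At day 7 none of the 52 passed by edgeR, with 5 higher and 0 lower at an unadjusted p under 0.05, where 4.32% of all genes were higher and 4.15% lower. The 4 with the smallest p were the Mediator kinase Cdk8 at 0.21 ± 0.052 (edgeR adjusted p = 0.302), the coactivator Crebbp at 0.18 ± 0.056 (adjusted p = 0.426), the ubiquitin ligase Dtx3l at 0.19 ± 0.063 (adjusted p = 0.462) and the acetyltransferase Kat2a at 0.14 ± 0.050 (adjusted p = 0.466). With both days together 5 of the 52 passed, 2 higher and 3 lower, where 3.36% of all genes were higher and 4.05% lower. Crebbp rose by 0.17 ± 0.038 (edgeR adjusted p = 0.0103) and Dtx3l by 0.22 ± 0.049 (adjusted p = 0.0107), while Psenen was at -0.24 ± 0.042 (adjusted p = 0.00344), Hes6 at -0.20 ± 0.057 (adjusted p = 0.0336) and Rfng at -0.14 ± 0.044 (adjusted p = 0.0451). Hes6 and Rfng no longer passed with the close pairs summed (edgeR adjusted p = 0.0687 and 0.0919) or with no filter on low counts (0.0510 and 0.0713). Psenen, Crebbp and Dtx3l passed without each of the 32 libraries in turn, Hes6 without 21 of them (edgeR adjusted p of up to 0.0638) and Rfng without 10 (up to 0.0761).

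In the difference between the days' effects none of the 52 passed by edgeR, with 7 higher and 7 lower at an unadjusted p under 0.05, where 7.16% of all genes were higher and 7.85% lower. Among pathway and VEGF genes the smallest p were those of Fbxw7 at 0.34 ± 0.097 (edgeR adjusted p = 0.136), Psenen at -0.27 ± 0.084 (adjusted p = 0.154), Rfng at -0.26 ± 0.088 (adjusted p = 0.188) and the VEGF receptor Flt1 at 0.21 ± 0.076 (adjusted p = 0.213). None of the 9 VEGF ligand and receptor genes tested passed at day 1, 7 or 27, where 0.0279%, 0% and 5.52% of all genes did.

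At day 27 the vascular markers lay on both sides of 0. Of the arterial markers 3 of 8 lay below 0 (median 0.03), with summed levels of 991 to 1210 CPM in exposed lungs and 914 to 1127 CPM in air lungs, and of the pan-endothelial markers 10 of 17 lay below 0 (median -0.0088), where 52% of all genes tested did. Of the capillary markers 6 of 9 lay below 0 (median -0.06), and of the venous and lymphatic markers 8 of 9 lay above 0 (median 0.11). Among marker genes that passed, the endothelial receptor Tie1 was at -0.17 ± 0.040 (edgeR adjusted p = 0.0292), the fenestral diaphragm protein Plvap at -0.20 ± 0.048 (adjusted p = 0.0327), the noradrenaline transporter Slc6a2 at 0.63 ± 0.16 (adjusted p = 0.0349), the fibroblast genes Npnt at 0.27 ± 0.072 (adjusted p = 0.0396) and Pdgfra at 0.23 ± 0.064 (adjusted p = 0.0444), the ciliated cell gene Tppp3 at -0.28 ± 0.074 (adjusted p = 0.0373) and the B cell gene Cd79a at -0.80 ± 0.20 (adjusted p = 0.0373). All 7 missed the threshold with the close pairs summed, at edgeR adjusted p from 0.0590 to 0.0864, Pdgfra (0.0576) and Cd79a (0.0553) also with no filter on low counts, and each passed without 4 to 8 of the 16 libraries left out in turn. The calls were 1 of 17 pan-endothelial, 1 of 9 capillary and 1 of 9 venous and lymphatic markers, where 5.52% of all genes tested passed. Also called were 2 of 9 fibroblast, 1 of 7 airway and 1 of 11 leukocyte markers. Of 8 arterial, 12 smooth muscle and pericyte and 11 alveolar epithelial markers 0 passed. All 13 immediate early genes lay below 0 (median -0.15), and so did the 5 heart muscle markers (median -0.26). Their part in the level of Hes1 was not tested.

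Between days, these genes changed in the air lungs about as often as all genes did. In air lungs at day 27 against day 7, 4 of the 9 genes passed, 1 higher and 3 lower, where 39.5% of all genes tested passed, 19.8% in each direction. Each day is a separate table, so time after exposure, the animals' age and any difference in how the tables were made cannot be told apart.

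Heyl, a target gene used by vascular smooth muscle, had the largest change of the 9. It ran from 23.0 to 37.0 CPM in air lungs at day 27, with a median of 26.1 CPM, and from 30.0 to 63.7 CPM in air lungs at day 7, with a median of 41.4 CPM. The ranges overlapped, and Heyl fell by 0.60 on the log2 scale (SE 0.13, edgeR adjusted p = 0.000474). In exposed lungs Heyl averaged 27.6 ± 4.17 CPM at day 27 (SD, n = 8) and 41.5 ± 7.84 CPM at day 7 (SD, n = 7), and the day difference of exposed lungs did not differ detectably from that of air lungs (0.01 ± 0.18, 95% interval -0.36 to 0.38, edgeR adjusted p = 0.983).

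Dll4 rose in air lungs, at 163 to 219 CPM at day 27, with a median of 205 CPM, and 149 to 187 CPM at day 7, with a median of 165 CPM. The difference was 0.26 ± 0.067 on the log2 scale (SE, edgeR adjusted p = 0.00280). The receptor Notch1 was at -0.17 ± 0.062 (SE, adjusted p = 0.0246) and the ligand Jag1 at -0.23 ± 0.092 (SE, adjusted p = 0.0461). Heyl and Dll4 passed without each of the 32 libraries in turn and with the close pairs summed. Notch1 missed the threshold with the close pairs summed (edgeR adjusted p = 0.0775) and without air day 7 library 2 (0.0642) or air day 27 library 5 (0.0645), 6 (0.0581) or 7 (0.0683). Jag1 missed it with the close pairs summed (0.199), with no filter on low counts (0.0591), with limma-voom (0.0571) and without air day 7 library 1, 2, 3 or 4 or air day 27 library 1, 3, 5, 6 or 7 (0.0533 to 0.111). The other 5 genes had edgeR adjusted p from 0.174 to 0.949.

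The 2 other Notch receptors also fell in air lungs. Notch3, the receptor of vascular smooth muscle and pericytes, ran from 119 to 180.5 CPM at day 27, with a median of 145 CPM, and from 201.5 to 255 CPM at day 7, with a median of 215 CPM. Every day 27 library lay below every day 7 library, as in 2.57% of all genes tested. Notch3 differed by -0.60 ± 0.072 on the log2 scale (edgeR adjusted p = 1.76e-07), and Notch2 by -0.55 ± 0.081 (adjusted p = 6.1e-06). Of the 52 other pathway genes, these receptors included, 12 were higher and 21 lower, where 19.8% of all genes changed in each direction. Among those with the smallest p, Psenen rose by 0.46 ± 0.059 (adjusted p = 7.64e-07), while the ubiquitin ligases Dtx4 (-0.43) and Neurl1b (-0.56) and the sheddases Adam17 (-0.19) and Adam10 (-0.26), which cut Notch at the cell surface, were lower at adjusted p from 5.45e-05 to 0.000543.

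Markers of several cell types changed between these days, and their part in the Notch gene changes was not tested. For all counts here the share over all genes was 19.8% in each direction. Of 12 smooth muscle and pericyte markers, a list that holds Notch3 itself, 9 were lower and 0 higher (median -0.34), with summed levels of 1873 to 2644 CPM in air lungs at day 27 and 2869 to 3236 CPM in air lungs at day 7. Those with the smallest p besides Notch3 were Postn at -0.40 ± 0.047 (edgeR adjusted p = 1.1e-07) and Pdgfrb at -0.37 ± 0.052 (adjusted p = 2.76e-06). Of 9 fibroblast markers 5 were lower and 1 higher, with a median of -0.41 and log2 fold changes from -1.02 for the collagen gene Col1a1 (SE 0.084, adjusted p = 2.3e-10) to 1.17. Beside Dll4, 4 of 17 pan-endothelial markers were higher and 2 lower (median 0.04), 4 of 9 capillary markers higher and 1 lower (median 0.07), and 0 of 8 arterial markers higher and 1 lower (median 0.0056). All 4 red cell markers were lower (median -0.92), while 5 of 11 leukocyte markers (median 0.28), 5 of 11 alveolar epithelial markers (median 0.14) and 3 of 13 immediate early genes (median 0.17) were higher and 0 of these lower.

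**Figure D4:**
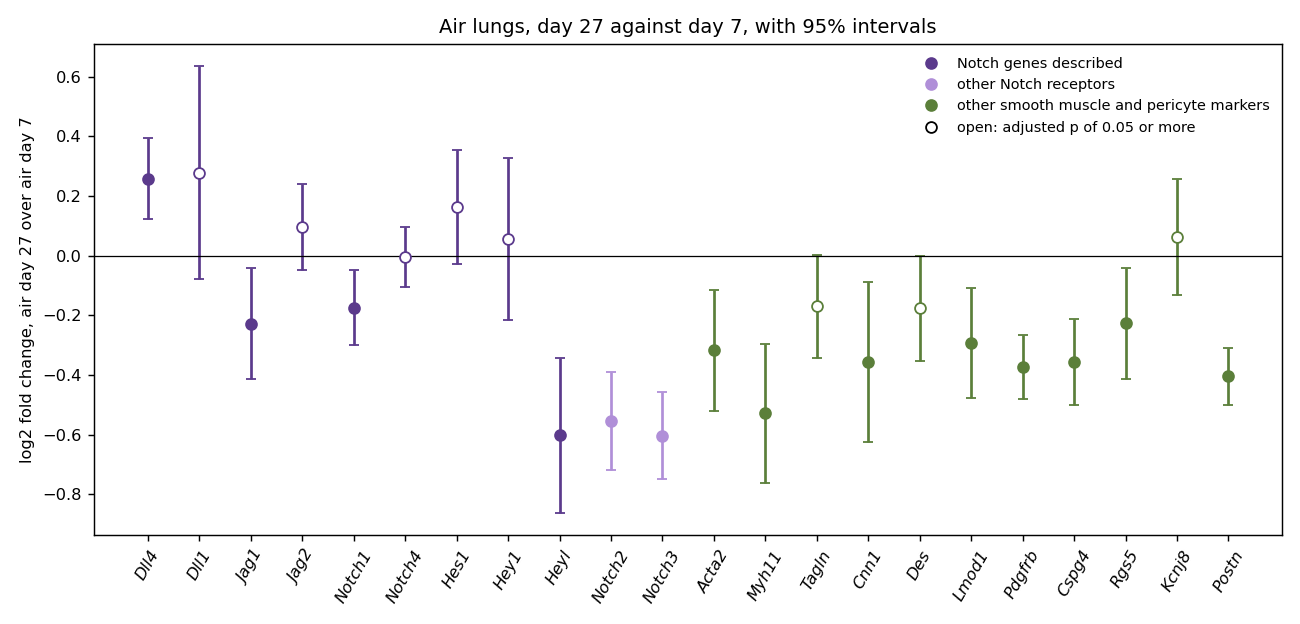
Log2 fold change of air lungs at day 27 over air lungs at day 7 (vertical axis) for the 9 Notch genes, the receptors Notch2 and Notch3 and the other smooth muscle and pericyte markers; bars are 95% intervals and filled points passed an edgeR adjusted p under 0.05. Heyl and Notch3 both lie at -0.60, and Dll4 at 0.26 is the single filled point above 0.

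Within groups, the animal-to-animal level of Dll4 went with that of Dll1. Each gene was centred on its group mean of log2(CPM + 1), which removes exposure and day, and the close pairs were averaged, which leaves 44 units. Over 10 relations computed, Dll1 had Pearson r = 0.513 with Dll4 (permutation p = 0.00071, adjusted p = 0.0071) and Spearman rho = 0.541 (permutation p = 0.00044, adjusted p = 0.0044), and r = 0.541 without the 2 units farthest from the median of Dll4. By day the r of Dll1 was 0.307 at day 1 (n = 15), 0.465 at day 7 (n = 14) and 0.714 at day 27 (n = 15), with adjusted permutation p of 0.58, 0.4 and 0.037.

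Next came Notch1, Jag1 and Hes1. Notch1 had r = 0.400 (adjusted permutation p = 0.065; rho = 0.396, adjusted permutation p = 0.0467), Jag1 r = 0.366 (adjusted permutation p = 0.07; rho = 0.443, adjusted permutation p = 0.029) and Hes1 r = 0.348 (adjusted permutation p = 0.0775; rho = 0.339, adjusted permutation p = 0.0875). Without the 2 farthest units the r of Notch1 was 0.340, that of Jag1 0.451 and that of Hes1 0.386. By day, r was 0.523, 0.514 and 0.28 for Notch1, -0.063, 0.573 and 0.564 for Jag1, and 0.089, 0.186 and 0.605 for Hes1 at days 1, 7 and 27. Notch4 had r = 0.195, Jag2 0.038, Heyl -0.009 and Hey1 -0.214, with adjusted permutation p from 0.3 to 0.95. The mean log2 level of the pan-endothelial markers had r = 0.238 with Dll4 (adjusted permutation p = 0.3), and that of the smooth muscle markers 0.041 (adjusted permutation p = 0.911).

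**Figure D5:**
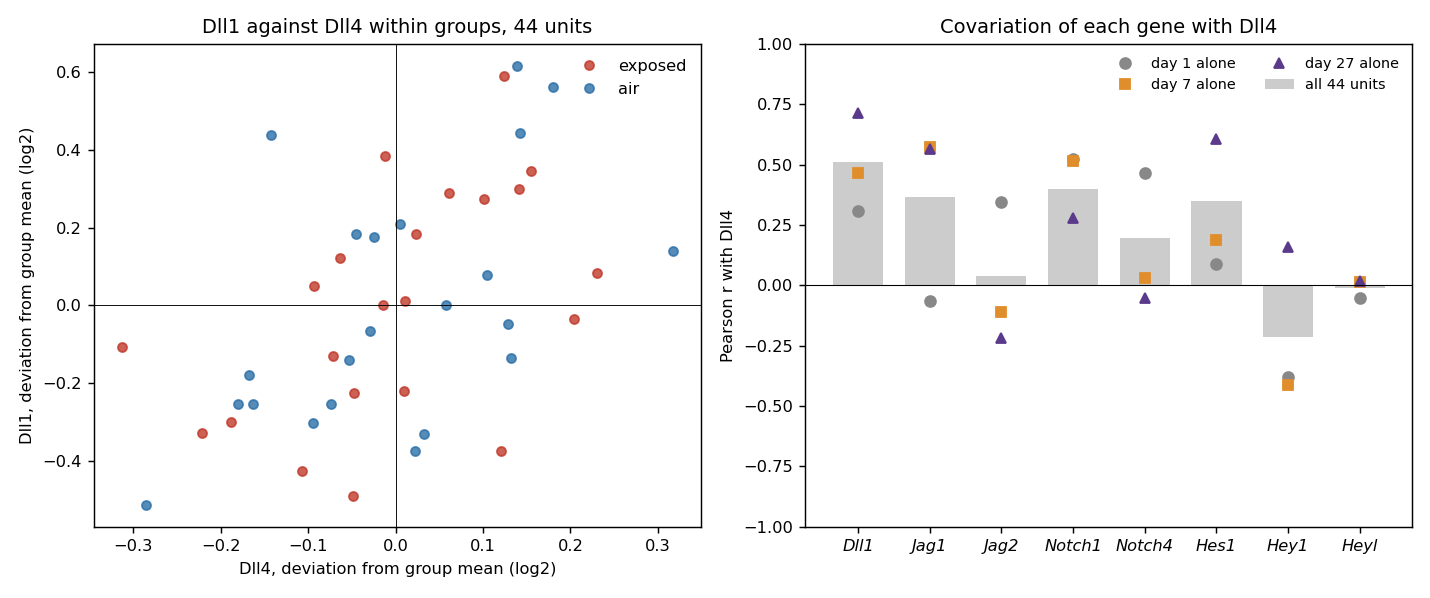
Left, deviation of Dll1 from its group mean (vertical axis, log2) against that of Dll4 (horizontal axis, log2) in 44 units, exposed in red and air in blue; right, Pearson r of each gene with Dll4 over all units (bars) and within each day (symbols). The r of Dll1 is 0.513 over all units and 0.307, 0.465 and 0.714 at days 1, 7 and 27.

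Among 10178 genes with a mean of at least 10 CPM, 5% had an r with Dll4 below -0.277 and 5% above 0.29, and the points of all these genes share libraries and depth. Dll1 ranked 21, Notch1 123, Jag1 196 and Hes1 239. The 8 genes most like Dll4 by this measure were LOC100912697 (r = 0.732), the ephrin receptor Epha2 (0.662), the lung mesenchymal and endothelial transcription factor Foxf1 (0.60), the arterial connexin Gja5 (0.594), Grasp (0.584), the AP-1 subunit Jund (0.570), the cytokine signalling inhibitor Socs3 (0.566) and Pdcd7 (0.566). Their log2 fold changes of exposed over air lungs at day 1, each a description, ran from -0.42 for LOC100912697 to -0.06 for Jund, against -0.42 for Dll4.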

How the data were processed

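Expected counts per gene, estimated counts that need not be whole, were deposited by the authors in 3 tables, 1 per day, without normalization. Build Rnor_6.0 is given in the submitters' processing notes, as are, without settings, Salmon 1.10.1, STAR 2.6.1d, Trim Galore 0.6.7, cutadapt 3.4 and bcl2fastq 2.19. The labels' protocols name a stranded kit for polyadenylated RNA; whether counting used the strand is not given in the sources used here.

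Values were rounded to whole numbers (5.58% were not whole at a tolerance of 1e-06, and none for the Notch genes). R 4.3.3 and edgeR 4.0.16 were used for a fit per day (TMM, filterByExpr, robust quasi-likelihood test) and for days 7 and 27 together in 1 fit of 4 group means. Adjusted p are Benjamini-Hochberg values over all genes tested, with a threshold of 0.05; SE is the log2 fold change over the square root of F. Correlations used 100000 shuffles within groups. The alternatives were RLE size factors, no filter, DESeq2 1.42.0, a 1 CPM minimum of the mean, limma-voom (limma 3.58.1), all 48 libraries in 1 fit, total count as covariate, close pairs summed, and each library left out. Close pairs were found over genes averaging 20 counts or more.

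The Notch genes and the lists were chosen with earlier results of these data known. Other pathway genes were named where they passed with a mean of at least 1 CPM, at most 8 by smallest p, or otherwise the 4 with the smallest p (1 gene that this rule names is not reported here); markers where they passed, at most 3 per list. Genes most like Dll4 were the 8 with the highest r. The steps were tested on simulated counts.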

Additional observations from a re-analysis of the deposited data

Results flagged for a closer look

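Of 54 checks of a gene within a group, with close pairs averaged, 3 found 1 animal far from the rest, and chance alone flags about 1 in 20. Jag2 reached 55.14 CPM in 1 exposed lung at day 1, with the next at 47.14 CPM. Notch1 was at 236.4 CPM in 1 exposed lung at day 7, with the next lowest at 287.1 CPM, the average of a close pair. Dll1 reached 39.41 CPM in 1 exposed lung at day 27, with the next at 28.18 CPM.

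Notch1 lay on opposite sides of air at 2 times; it did not pass at day 27, and day 1 is given as a description. At day 1 each of the 8 exposed libraries was below the air mean, with a mean difference of -19.1 CPM, and at day 27 all 8 lay above it, with a mean difference of 22.7 CPM. The difference between these days was not tested.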

How the results depend on the processing

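No paired analysis was possible because the animal numbers differ between all groups, so the groups share no replicate number. With 1 library left out, 0 of the 9 genes passed at day 7, at day 27, with both days together and in the difference between their effects. In air lungs between days 7 and 27, 2 to 4 passed; 2 passed with the close pairs summed. At day 27, 1 passed with all 48 libraries in 1 fit. Of the relations with Dll4, 2 passed with 48 units, 0 at day 1 alone and 0 at day 7 alone.

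Some values changed sign, and the cause was not tested. At day 1 the log2 fold change ran over the 8 alternatives from -0.126 to 0.0461 for Dll1 and from -0.0147 to 0.0887 for Heyl. With 1 library left out at day 1, Dll1 ran from -0.0659 to 0.0636 and Jag1 from -0.0076 to 0.0666. In those fits Hey1 ran from -0.134 to 0.0127 and Heyl from -0.0516 to 0.0591. With limma-voom the log2 fold change was 0.0006 for Hes1 at day 7 and -0.0014 for Heyl in the difference between the days' effects. With close pairs summed it was 0.0004 for Dll1 in that difference and -0.0142 for Hey1 in air lungs between days 7 and 27. With 1 library left out, Dll4 at day 27 ran from -0.0581 to 0.0094, Hes1 at day 7 from -0.0497 to 0.0425, Heyl from -0.0845 to 0.0811 at day 7, -0.0531 to 0.053 at day 27 and -0.0505 to 0.0328 over both. In the difference between the days' effects Dll1 ran from -0.116 to 0.1041 and Heyl from -0.0926 to 0.0765. In air lungs between the days Notch4 ran from -0.032 to 0.0222 and Hey1 from -0.0121 to 0.145. With a day alone, r with Dll4 was -0.063 for Jag1 at day 1 (0.366 over all days), -0.111 and -0.22 for Jag2, and 0.016 and 0.018 for Heyl at days 7 and 27, and -0.052 for Notch4 and 0.16 for Hey1 at day 27 (0.195 and -0.214 over all days).

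Counts over all genes moved more. Against 4 genes at day 1, no filter and the total count covariate gave 2 each, DESeq2 42, all 48 libraries 14, the summed pairs 0 and single omissions 0 to 17. Against 0 at day 7, DESeq2 gave 18, all 48 libraries 1 and single omissions 0 to 11. Against 783 at day 27, no filter gave 474, DESeq2 1609, all 48 libraries 2227, the summed pairs 31 and single omissions 9 to 1926. Against 1085 over both days, no filter gave 701, the summed pairs 522 and single omissions 557 to 1964. Against 0 in the difference between the days' effects, DESeq2 gave 93, all 48 libraries 3 and single omissions 0 to 119.

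Dll1 and Hey1 had 141 to 469 counts per library. The widest 95% interval of an exposure difference among the 9 genes within day 7 or day 27 was that of Dll1 at day 27, 0.37 to either side of the log2 fold change, and that of Hey1 at day 27 was 0.20.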
